A study of Rattus norvegicus with 10 samples.

Results

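The enzymes of the urea cycle and of glutamate handling were examined in rat liver as 10 genes: Cps1, Otc, Ass1, Asl, Arg1, Glul, Gls2, Glud1, Got1 and Gpt. All probe sets that the platform's gene table pairs with one of these genes and with no other were taken, whatever their values, which gave 15 probe sets of the 31042 that are not array controls. Cps1, Asl and Glud1 have 2 probe sets each, Glul has 3, and the other genes have 1. The samples are 10 livers of male rats aged 13 weeks, 1 array for each liver. The seasoned group (5 rats) ate feed in which instant noodle made up 30 wt% and fat gave 26% of the energy, and the control group (5 rats) ate that feed with its seasonings left out. The treatment text gives 30 days of feeding and the growth text 4 weeks, with paired feeding of about 60 g diet per kg body weight a day, free water and a cycle of 12 h light and dark. Both groups therefore share the noodle and the fat, and the labelled contrast is the seasonings. The labels give no strain, genotype or time of collection. They number the animals 1, 4, 7, 10 and 13 in the seasoned group and 2, 5, 8, 11 and 14 in the control group, and lists of 5 values below follow these orders.

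The liver removes ammonia along the path of the blood through it. Hepatocytes near the portal vein turn it into urea, through carbamoyl phosphate made by Cps1 and citrulline made by Otc in the mitochondria, argininosuccinate made by Ass1, its cleavage to arginine by Asl, and the release of urea by Arg1. Hepatocytes around the central vein bind what remains into glutamine with Glul, glutamine synthetase. Gls2, the liver form of glutaminase, releases ammonia from glutamine, Glud1 releases it from glutamate, and the aminotransferases Got1 and Gpt pass amino groups between glutamate and aspartate or alanine.

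None of the 15 probe sets passed the test of a difference between the diets. In the limma fit over all 31042 probe sets 0 of 15 passed an adjusted p of 0.05, with a smallest adjusted p among them of 0.9997. That fit called 0 probe sets at all (0.0%). Most probe sets of the deposited table hardly move between arrays: 26992 (87.0%) have an SD over the 10 livers at or under 0.01 log2 units and are called near-constant here. Of the member probe sets 14 vary more than that and 1, that of Otc, is near-constant. In a second fit over the 4050 varying probe sets, 0 of the 14 passed, with a smallest adjusted p of 0.78 for Arg1, where 13 of 4050 were called (0.321%). At an unadjusted p under 0.05 stood 0 of 15 members against 4.48% of all probe sets, and 0 of 14 against 12.9% of the varying ones. The groups overlapped for each of the 14, while they did not overlap for 2.99% of varying probe sets. Without a variance shared between probe sets 0 of 14 members were called, but so were 0 of all 4050 varying probe sets, so that setting adds nothing about the members. With weights for the arrays 0 of 14 members were called, against 306 of the 4050.

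The mean was higher in the seasoned livers for 5 of the 14 varying probe sets and lower for 9. Their differences, seasoned minus control, ran from -0.11 to 0.12 log2 units, with a median of -0.034 against 0.0079 over all varying probe sets. Differences of all 4050 had a median size of 0.091, those of the members 0.061. The 95% intervals of the 14 lay within -0.44 and 0.52, which is a range of seasoned over control from 0.738 to 1.43. A change larger than these bounds is thus outside the intervals of each single varying probe set, and the width differs among them: the interval of Glud1 1387878_at ran from -0.054 to 0.084 and that of Cps1 1370151_at from -0.22 to 0.10. These intervals are of the first fit, where near-constant probe sets enter the shared variance, and their width depends on that choice. In the second fit the SE of Glud1 1387878_at was 0.049 against 0.030 in the first. For Cps1 1370151_at it was 0.076 against 0.070, and for Got1 0.162 against 0.171. Since RNA of bulk liver was measured, a change in the share of a kind of cell and a change in RNA per cell cannot be told apart. The spread over the 10 livers of the 14 probe sets had a median SD of 0.174 log2 units, from 0.047 to 0.27, and over all varying probe sets the median was 0.192.

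**Figure D1:**
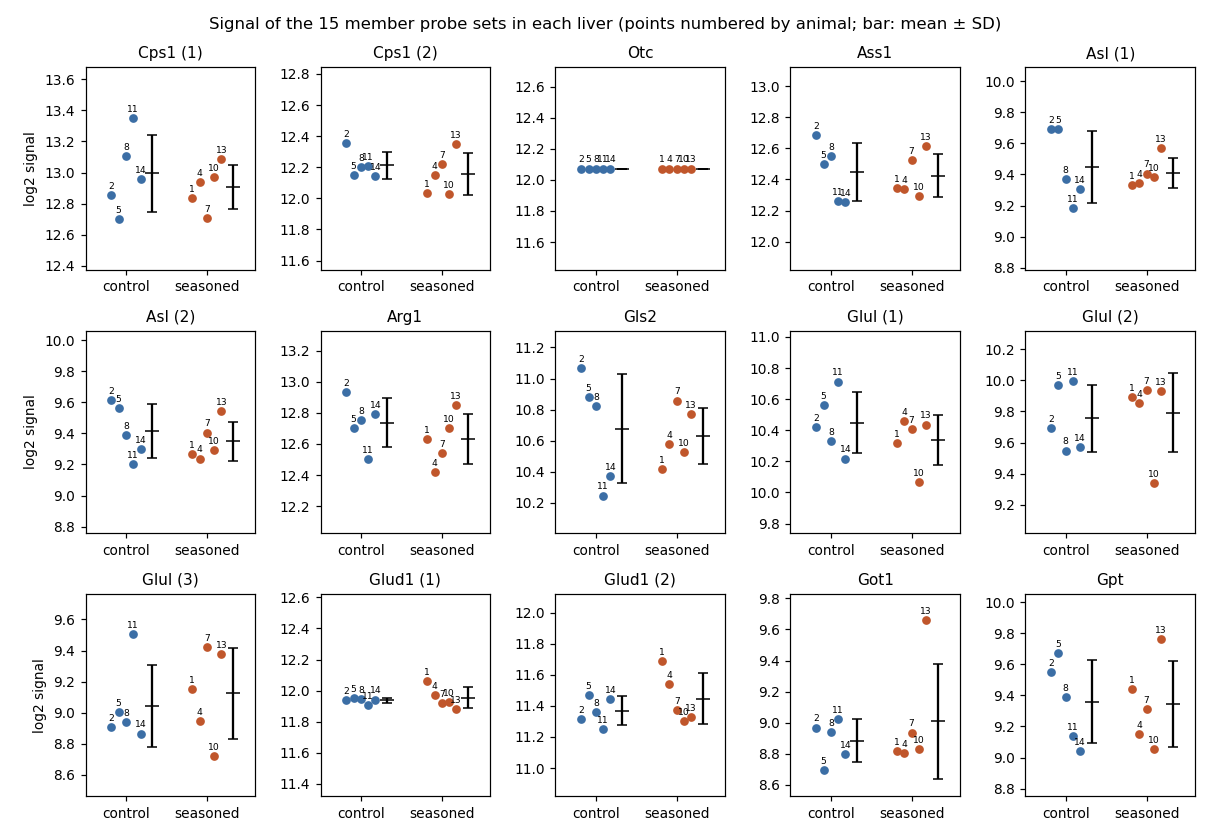
Log2 signal (vertical axes, spanning the same number of log2 units in each panel) of the 15 member probe sets in each liver, with blue points for control and orange points for seasoned livers, animal numbers above the points, and the mean ± SD of 5 livers beside them. Cps1 (1) is 1384334_at and (2) 1370151_at, Asl (1) 1367754_s_at and (2) 1368916_at, Glul (1) 1367632_at, (2) 1386870_at and (3) 1367633_at, Glud1 (1) 1387878_at and (2) 1370200_at. The groups overlap in every panel, and Otc is flat.

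**Figure D2:**
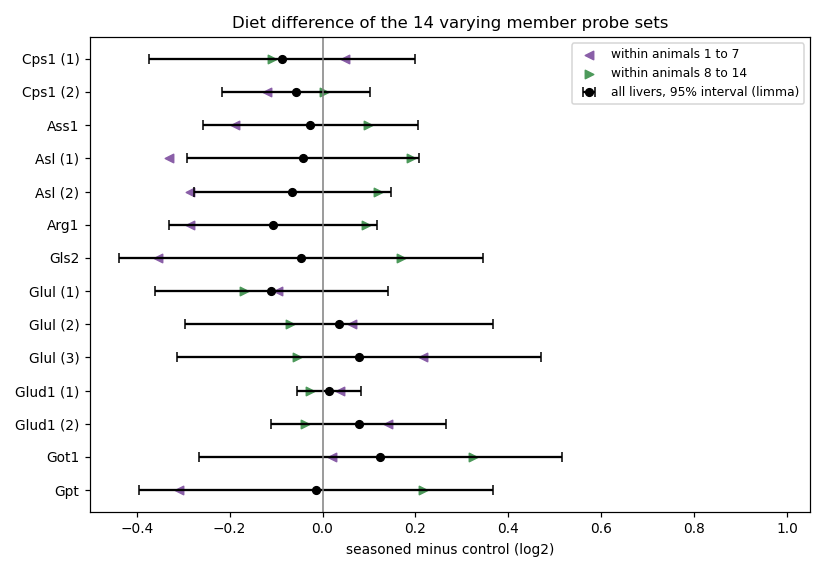
Seasoned minus control in log2 units (horizontal axis) for the 14 varying member probe sets, numbered as in the plot of values by liver. Black points with bars are the limma difference over all livers with its 95% interval, and triangles are the differences within animals 1 to 7 and within animals 8 to 14. Each interval holds 0, and for 12 of the 14 the triangles lie on opposite sides of 0.

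Cps1, which fixes ammonia as carbamoyl phosphate at the entry of the cycle, was measured by 2 probe sets. Probe set 1384334_at read 12.83, 12.94, 12.70, 12.97 and 13.09 in the seasoned livers and 12.85, 12.70, 13.11, 13.35 and 12.96 in the control livers. The highest and the lowest value both belong to control livers, 11 and 5. The difference was -0.087 ± 0.13 log2 units (SE, 95% interval -0.37 to 0.20), and without control liver 11 it was 0.0028. Probe set 1370151_at read 12.03, 12.15, 12.22, 12.03 and 12.35 in the seasoned and 12.36, 12.15, 12.20, 12.21 and 12.15 in the control livers, a difference of -0.056 ± 0.070. Here control liver 2 and seasoned liver 13 were the highest. The 2 probe sets of Cps1 hardly ordered the livers alike, with r = 0.16 over the 10 livers.

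Otc, which joins carbamoyl phosphate to ornithine, stood between 12.0723 and 12.0726 in all 10 livers. This SD of 0.00011 log2 units is the near-constant kind, and at SD limits of 0.001 and 0.05 in place of 0.01 the near-constant members are 1 and 2. The second at 0.05 is Glud1 1387878_at. No spread between rats can be read from the Otc values, so they say nothing of the diets in either direction.

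Ass1, the enzyme that condenses citrulline with aspartate, read 12.35, 12.34, 12.52, 12.29 and 12.62 in the seasoned livers and 12.68, 12.50, 12.55, 12.26 and 12.26 in the control livers. Control liver 2 was the highest and control liver 14 the lowest, with the seasoned livers between them. The group means were 12.42 ± 0.14 and 12.45 ± 0.19 (SD, n = 5 each), and the difference was -0.027 ± 0.10 (95% interval -0.26 to 0.20).

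Asl, argininosuccinate lyase, had a like pattern in its 2 probe sets. Probe set 1367754_s_at read 9.33, 9.35, 9.41, 9.38 and 9.57 in the seasoned and 9.69, 9.69, 9.37, 9.18 and 9.31 in the control livers, with control livers 2 and 5 above all others and control liver 11 the lowest. Its SD was 0.097 in the seasoned and 0.23 in the control group, and its difference -0.042 ± 0.11. Probe set 1368916_at differed by -0.065 ± 0.093, with livers from 9.20 in control 11 to 9.62 in control 2. The 2 correlated at r = 0.95 over the 10 livers. The identity of the first is not settled: the platform's table names Asl, yet the transcript accession it gives beside that name belongs to Hnrnpab, an RNA-binding protein, in the RefSeq table of GRCr8. The other probe set of Hnrnpab is near-constant at 9.97 (SD 0.0001). Of the 6 member accessions that table holds, 5 belong to the gene named.

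Arg1, which splits arginine into urea and ornithine, had the smallest adjusted p of the varying members. Its values were 12.63, 12.42, 12.54, 12.70 and 12.85 in the seasoned livers and 12.93, 12.70, 12.76, 12.50 and 12.79 in the control livers. Control liver 2 was the highest and seasoned liver 4 the lowest, and the groups overlapped. The difference was -0.11 ± 0.098 log2 units (95% interval -0.33 to 0.12), a ratio of 0.929.

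Gls2, glutaminase, spread most widely among the control livers. It read 10.42, 10.58, 10.86, 10.53 and 10.77 in the seasoned livers and 11.07, 10.88, 10.82, 10.25 and 10.37 in the control livers, so that control livers 2 and 5 were the highest of all 10 and control livers 11 and 14 the lowest. The group means were 10.63 ± 0.18 and 10.68 ± 0.35 (SD, n = 5 each), and the difference was -0.047 ± 0.17 (95% interval -0.44 to 0.34).

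Across the livers Ass1, Asl, Gls2 and Gpt were high and low together, a set of 4 genes picked after their values had been seen. Their upstream sequence is therefore shown, as RefSeq gives it for GRCr8 on the coding strand of each gene, from 250 bases before to 50 after the start of a transcript. The RefSeq table holds 10 such windows for 8 of the member genes and no entry for Arg1 and Gpt, so Gpt is named only. Capitals mark a match to one of 6 motifs searched on both strands.
Ass1: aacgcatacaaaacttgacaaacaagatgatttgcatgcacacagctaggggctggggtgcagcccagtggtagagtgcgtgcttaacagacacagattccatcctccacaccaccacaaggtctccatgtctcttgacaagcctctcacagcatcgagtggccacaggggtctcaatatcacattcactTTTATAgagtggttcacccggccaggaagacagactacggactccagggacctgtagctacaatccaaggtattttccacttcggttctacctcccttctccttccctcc
Asl: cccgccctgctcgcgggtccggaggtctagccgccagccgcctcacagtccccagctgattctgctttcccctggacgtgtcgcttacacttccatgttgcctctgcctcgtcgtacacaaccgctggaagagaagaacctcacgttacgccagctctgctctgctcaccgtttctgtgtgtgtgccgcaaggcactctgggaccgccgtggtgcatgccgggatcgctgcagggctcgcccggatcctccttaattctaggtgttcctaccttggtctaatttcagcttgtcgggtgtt
Gls2 window 1: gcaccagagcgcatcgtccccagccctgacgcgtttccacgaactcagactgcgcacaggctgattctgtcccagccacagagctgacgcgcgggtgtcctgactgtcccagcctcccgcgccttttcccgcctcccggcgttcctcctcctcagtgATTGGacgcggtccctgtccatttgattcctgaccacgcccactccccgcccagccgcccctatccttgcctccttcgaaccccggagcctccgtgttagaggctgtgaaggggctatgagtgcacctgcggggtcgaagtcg
Gls2 window 2: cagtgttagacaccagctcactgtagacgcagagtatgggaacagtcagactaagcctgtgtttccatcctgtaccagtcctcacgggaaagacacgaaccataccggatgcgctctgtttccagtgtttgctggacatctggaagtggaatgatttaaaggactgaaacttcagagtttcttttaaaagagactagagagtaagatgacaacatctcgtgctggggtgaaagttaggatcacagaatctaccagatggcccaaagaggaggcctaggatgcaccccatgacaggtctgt
Ass1 lies on chr3:35149480-35149779, plus strand, Asl on chr12:32295658-32295957, plus strand, and the windows of Gls2 on chr7:1201629-1201928 and chr7:1206874-1207173, plus strand. The motifs were the TATA box TATAAA (found in 14.2% of 33469 windows of this length), CCAAT (37.5%), the E-box CACGTG (6.42%), the D-box TTATGNAA of clock output factors (3.66%), the C/EBP motif TTNNGCAAT (2.33%) and the glucocorticoid half-site TGTTCT (20.7%). The D-box and the C/EBP motif overlap where both match. Ass1 holds 1 TATA box, read on the other strand as TTTATA, the first window of Gls2 holds 1 CCAAT, read as ATTGG, and the window of Asl and the second of Gls2 hold none of the 6. The windows of Ass1, Asl and Gls2 share no motif of the 6. Among the other members Glul has 1 CCAAT in its first and 3 in its second window, Got1 has 6, Otc has 1 D-box, and Cps1 and Glud1 have no match.

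The 5 probe sets of Ass1, Asl, Gls2 and Gpt form 9 pairs of different genes, with r from 0.671 to 0.925 and a median of 0.823 over the 10 livers. The median was 0.79 within the seasoned livers, 0.894 within the control livers and 0.84 after each diet's mean was removed. Leaving out control liver 11 gave 0.79. The lowest r was 0.366 within the seasoned livers, for Gls2 with Gpt, and 0.798 within the control livers. These livers share arrays and processing, and the correlations are descriptions without a test. Averaged over the 5 probe sets and set against the mean of all livers, control livers 2 and 5 stood at 0.27 and 0.21 log2 units and seasoned liver 13 at 0.20. Control livers 11 and 14 stood at -0.24 and -0.19, and seasoned liver 10 at -0.14. Both the highest and the lowest livers were thus control animals. Arg1, the last enzyme of the cycle, went with the Asl probe sets at r = 0.62 and 0.71. The 2 probe sets of Cps1, the first enzyme, parted here. Cps1 1370151_at had r = 0.49 and 0.67 with those of Asl and 0.76 with Ass1. Cps1 1384334_at had r = -0.55 and -0.42 with those of Asl, which came to -0.30 and -0.18 without control liver 11. Within the seasoned livers they were 0.57 and 0.30, and within the control livers -0.88 and -0.84. Among hepatocyte zone markers, the periportal enzyme Hal had r = 0.69 with the mean of the 5 probe sets, Uroc1 0.55, Cdh1 0.44, Sds 0.34, Cyp2f4 0.32 and Pck1 -0.28. Without control liver 11 these were 0.59, 0.37, 0.21, 0.47, 0.11 and -0.25. For the markers of the perivenous side r was -0.27 for Cyp2e1, -0.14 for Cyp1a2, -0.23 for Axin2, 0.098 for Tbx3, 0.17 for Oat and 0.59 for Cyp7a1. Without that liver they were -0.23, -0.043, -0.14, -0.075, 0.53 and 0.63, so that the values of several markers on both sides depend on it. The 7 measured periportal markers averaged 10.05 in the lowest and 10.55 in the highest liver, and the 9 perivenous ones 8.42 and 8.80. Single genes weigh on these means. Sds ran from 6.80 to 10.03 over the livers and Cyp7a1 from 6.69 to 9.61, while Pck1 ran only from 12.61 to 13.08 and Cyp2e1 from 13.39 to 13.61. The means are thus no measure of a list moving as a whole. The part of these markers in the pattern was not tested.

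**Figure D3:**
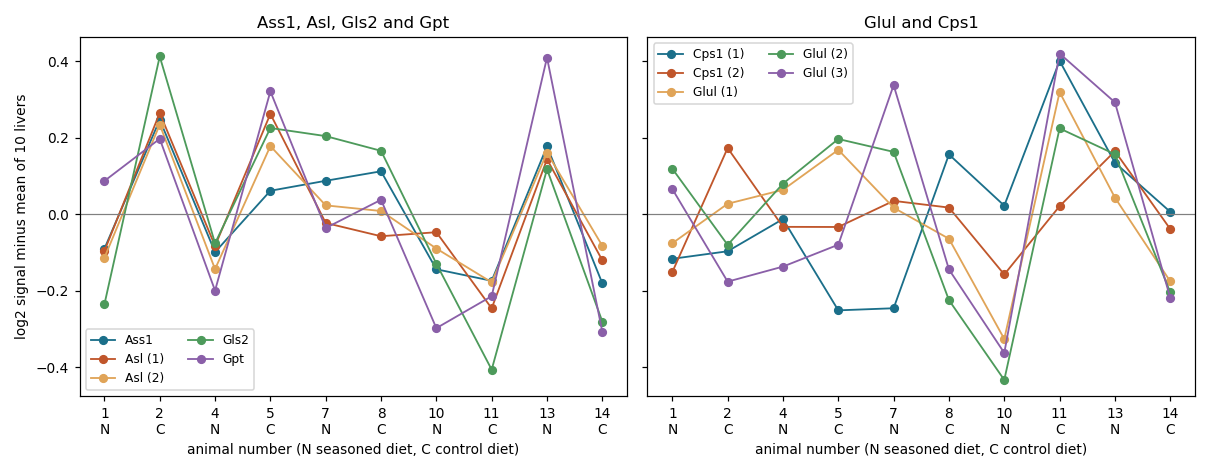
Log2 signal minus the mean of the 10 livers (vertical axis) against animal number (horizontal axis, N for seasoned and C for control diet) for Ass1, Asl, Gls2 and Gpt on the left and for Glul and Cps1 on the right, with a line for each probe set. On the left all 5 lines lie above 0 at control livers 2 and 5 and at seasoned liver 13 and below 0 at control livers 11 and 14, while on the right control liver 11 is the highest for each Glul probe set and for Cps1 1384334_at.

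Glul, which makes glutamine from glutamate and ammonia, was measured by 3 probe sets that moved with each other (r = 0.67, 0.80 and 0.84). Probe set 1367632_at read 10.32, 10.46, 10.41, 10.07 and 10.44 in the seasoned and 10.42, 10.56, 10.33, 10.71 and 10.22 in the control livers, a difference of -0.11 ± 0.11. Control liver 11 was the highest here and seasoned liver 10 the lowest. Probe set 1386870_at read 9.89, 9.85, 9.94, 9.34 and 9.93 and 9.69, 9.97, 9.55, 9.998 and 9.57, a difference of 0.035 ± 0.15, and seasoned liver 10 lay at 9.34, below the next seasoned liver at 9.85. Probe set 1367633_at read 9.15, 8.95, 9.42, 8.72 and 9.38 and 8.91, 9.01, 8.94, 9.51 and 8.87, a difference of 0.079 ± 0.17, and here control liver 11 stood above the other control livers, the next of which is at 9.01. The sign of the diet difference thus varies among the 3, and 0 of them passed the test. With control liver 11 left out the differences were -0.045, 0.095 and 0.19. Against the 5 probe sets of Ass1, Asl, Gls2 and Gpt the 3 had r from -0.20 to 0.46 over 15 pairs. Without control liver 11, the lowest liver there and the highest in each Glul probe set, these were 0.12 to 0.70, so the low values rest on that liver.

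Glud1, glutamate dehydrogenase of the mitochondrion, was highest in seasoned liver 1 in both probe sets. Probe set 1370200_at read 11.69, 11.54, 11.37, 11.30 and 11.33 in the seasoned and 11.32, 11.47, 11.36, 11.25 and 11.45 in the control livers, a difference of 0.078 ± 0.082 (95% interval -0.11 to 0.27). Probe set 1387878_at moved far less, between 11.88 and 12.06, with a difference of 0.015 ± 0.030, and it followed the first at r = 0.89. Both went with the median level of the array's varying probe sets, at r = 0.757 for 1370200_at and 0.606 for 1387878_at, a level that differed by 0.0029 between the diets.

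The cytosolic aspartate aminotransferase Got1 read 8.82, 8.80, 8.94, 8.83 and 9.66 in the seasoned livers and 8.97, 8.69, 8.94, 9.02 and 8.80 in the control livers. Seasoned liver 13 stood apart at 9.66, and the other 9 livers lay between 8.69 and 9.02. The difference was 0.12 ± 0.17 log2 units (95% interval -0.27 to 0.52), the largest of the 14 in size, and without seasoned liver 13 it was -0.039. Its direction thus rests on that liver.

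Gpt, the alanine aminotransferase used as a marker of liver injury when it enters the blood, read 9.44, 9.15, 9.31, 9.05 and 9.76 in the seasoned and 9.55, 9.67, 9.39, 9.14 and 9.04 in the control livers. Seasoned liver 13 and control liver 5 were the highest, and control liver 14 and seasoned liver 10 the lowest. The difference was -0.014 ± 0.17 (95% interval -0.40 to 0.37).

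**Figure D4:**
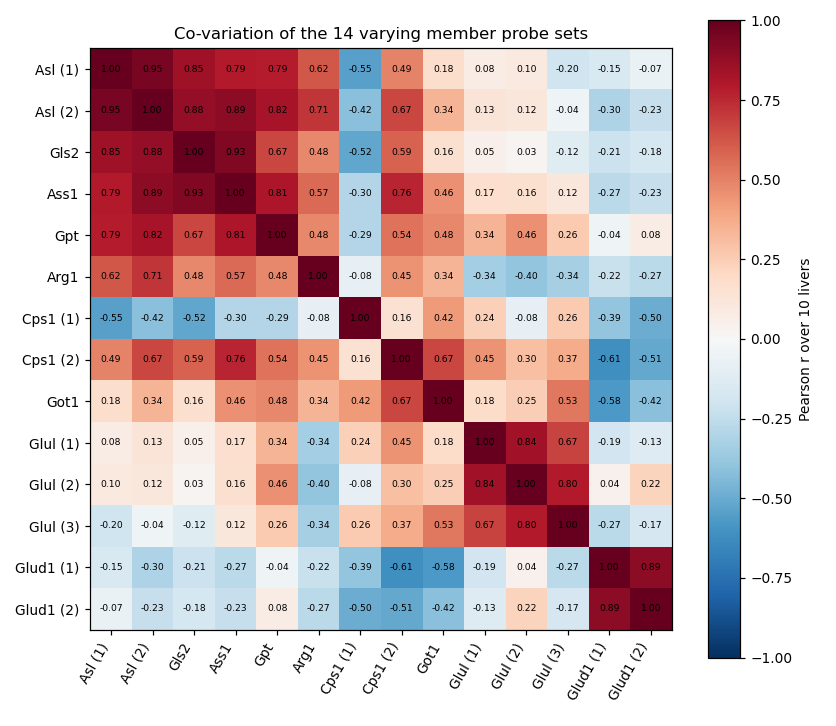
Pearson r over the 10 livers between each pair of the 14 varying member probe sets, in red for values above 0 and blue for values below 0, with each value printed in its cell and probe sets numbered as in the plot of values by liver. Asl, Gls2, Ass1 and Gpt form the red corner at the top left, the 3 Glul probe sets and the 2 of Glud1 form blocks of their own, and Cps1 (1) is blue against Asl.

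The signs of the diet differences were opposite within animals 1 to 7 and within animals 8 to 14 for 12 of the 14 varying probe sets. The share with opposite signs over all varying probe sets was not counted, so this cannot be read as particular to the members. Animals 1 to 7 are seasoned livers 1, 4 and 7 and control livers 2 and 5. Animals 8 to 14 are seasoned livers 10 and 13 and control livers 8, 11 and 14. Each difference thus rests on few livers. Averaged over Ass1, Asl, Gls2 and Gpt, control livers 2 and 5 stood highest and control livers 11 and 14 lowest. The opposite signs of these genes restate that pattern. Several members moved together, so the 12 are not separate observations. No label names these sets of animals: the division was found in these data by earlier work, so p-values that rest on it are not valid tests and are given as a description. Within animals 1 to 7 seasoned minus control was -0.33 and -0.28 for the Asl probe sets, -0.36 for Gls2, -0.31 for Gpt, -0.28 for Arg1 and -0.19 for Ass1, and within animals 8 to 14 it was 0.19 and 0.12, 0.17, 0.22, 0.093 and 0.098. Cps1 1370151_at went the same way (-0.12 and 0.0037). Other probe sets went from above 0 to below 0. These were Cps1 1384334_at (0.049 and -0.11), Glul 1386870_at (0.062 and -0.070) and Glul 1367633_at (0.22 and -0.054). Both of Glud1 did so too, 1387878_at at 0.037 and -0.026 and 1370200_at at 0.14 and -0.037. The test of this contrast of differences was added after they had been seen. By limma 0 of 14 members passed at an adjusted p of 0.05, as did 0 of the 4050 varying probe sets (0.0%), and at an unadjusted p under 0.05 stood 2 of 14, both of Asl, against 11.2%. For Asl 1367754_s_at the later difference exceeded the earlier one by 0.52 ± 0.11 (adjusted p = 0.156) and for 1368916_at by 0.40 ± 0.14 (adjusted p = 0.335).

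Between the sets themselves, with diet in the limma model, 24.3% of varying probe sets were called and 1 of 14 members. This was Cps1 1384334_at, higher by 0.28 ± 0.088 log2 units in animals 8 to 14 (adjusted p = 0.0457), at means of 13.09 against 12.81. Its 5 livers of the later set all read above the 5 of the earlier one. The other probe set of Cps1 differed by -0.0083 ± 0.077. The call was lost after quantile normalization (adjusted p = 0.0504) and without any one of seasoned livers 1, 7, 10 and 13 and control livers 2, 5 and 8, with differences from 0.23 to 0.32. Without seasoned liver 13 Gpt was called in its place, at -0.35 ± 0.098 (adjusted p = 0.0494). Cps1 1384334_at also ran against the median level of the varying probe sets (r = -0.82), which was 0.11 lower in animals 8 to 14. After the arrays were centred on that level the difference was 0.40 (adjusted p = 0.0440).

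The varying probe sets of other genes whose pattern over the 10 livers was most like that of each member were sought by Pearson r, with the probe set of highest SD standing for the member. Got1 had the closest match, Pklr at r = 0.961, followed by a Gpt2 probe set (0.922) and Elovl6 (0.901). For Asl these were Krt8 (0.955), Ssx2ip (0.920) and Nr1i2 (0.914), and for Glud1 Resp18 (0.944), Als2cl (0.924) and Klf3 (0.915). Gls2 went with Rnf181 (0.942), then with Ass1 (0.925) and Homer1 (0.891). Ass1 in turn went with Gls2, an Mdh1 probe set (0.907) and Homer1 (0.895). Ass1 and Gls2 are the only pair of members here that stood among each other's 3 closest. Cps1 1384334_at was most like Marcks (0.923), Gpt most like Acot13 (0.904), Arg1 most like Zfp354a (0.899) and Glul 1367633_at most like Trim5 (0.880). Without control liver 11, Cps1 and Marcks had r = 0.842. The matches of Got1 lean on seasoned liver 13, without which r was 0.833 for Pklr, 0.516 for Gpt2 and 0.699 for Elovl6. Each member was set against 3238 to 3240 varying probe sets of other named genes, and the values are given with no test.

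The genes around these enzymes were read from 4 lists, 1 probe set a gene, and 0 genes of any list passed in either limma fit. Whether a gene varied was read from that probe set alone, and another of its probe sets can differ. Mdh1 counts as near-constant in this way, though another of its probe sets varied. Of 12 partners of the urea cycle 11 were measured and 5 varied, 0 higher and 5 lower in the seasoned livers, with a median of -0.094. Slc25a15, which carries ornithine into the mitochondrion, differed by -0.097 ± 0.044 (adjusted p = 0.563 among varying probe sets), Odc1, the first enzyme of polyamine synthesis, by -0.094 ± 0.086, and Oat, ornithine aminotransferase, by -0.095 ± 0.17. Nags, whose product activates Cps1, was near-constant, as were Arg2 and the probe set used for Slc25a13. Of 25 glutamate and glutamine partners 21 were measured and 10 varied, 7 higher and 3 lower, with a median of 0.032. The amino acid transporter Slc38a2 read 8.17 ± 0.25 in the seasoned and 8.61 ± 0.24 in the control livers, a difference of -0.44 ± 0.15 (adjusted p = 0.203). Aldh4a1, which makes glutamate in proline breakdown, differed by 0.11 ± 0.064 and Nit2 by 0.080 ± 0.057.

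All 15 regulators of nitrogen metabolism were measured and 8 varied, 2 higher and 6 lower, with a median of -0.19. Cebpa, a transcription factor that drives genes of the mature hepatocyte, read 9.70, 9.31, 9.46, 9.61 and 9.72 in the seasoned livers and 9.93, 10.12, 9.85, 9.92 and 10.21 in the control livers. Every control liver lay above every seasoned liver. The means were 9.56 ± 0.17 and 10.01 ± 0.15 (SD, n = 5 each), a difference of -0.45 ± 0.10 that missed the threshold (adjusted p = 0.0857). Cebpa had the lower mean in the seasoned livers within both sets of animals, at -0.54 for animals 1 to 7 and -0.33 for animals 8 to 14. Its relative Cebpb differed by -0.47 ± 0.13 (adjusted p = 0.122), lower within both sets of animals (-0.28 and -0.66), and the glucocorticoid receptor Nr3c1 by -0.31 ± 0.14 (adjusted p = 0.395).

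Of 19 other genes of amino acid breakdown 18 were measured and 17 varied, 10 higher and 7 lower, with a median of 0.045. Sds, serine dehydratase, had the largest difference, -2.03 ± 0.45 (adjusted p = 0.0736), which passed without seasoned liver 13 (adjusted p = 0.0249) or without control liver 11 (adjusted p = 0.0485). Cth, which makes cysteine from cystathionine, differed by 0.30 ± 0.11 (adjusted p = 0.278) and Tdo2, which opens tryptophan breakdown, by -0.19 ± 0.075 (adjusted p = 0.341). With weights for the arrays Cebpa, Cebpb, Slc38a2, Sds and Cth passed the threshold, with adjusted p from 0.0040 for Sds to 0.0490 for Cebpb, in the same directions. That setting called 306 of the 4050 varying probe sets, against 13 without weights, so passing it is not particular to these genes. These lists were drawn up with earlier results of these data known, so their directions are no independent evidence.

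**Figure D5:**
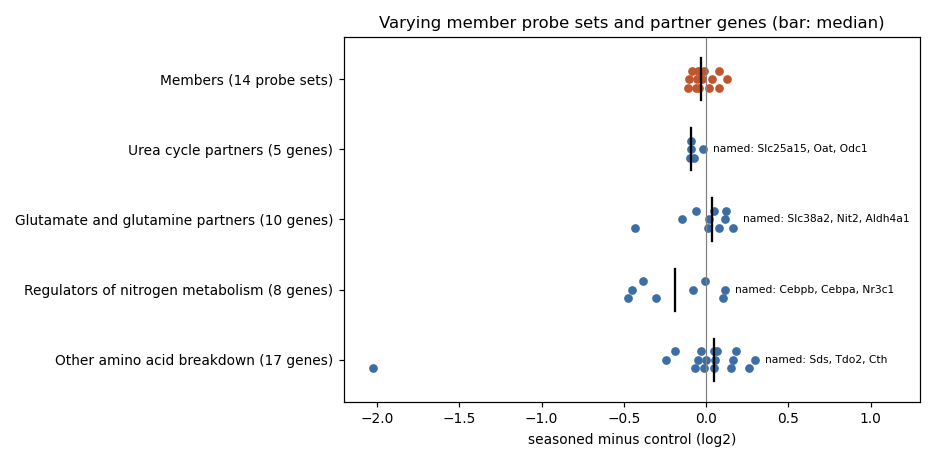
Seasoned minus control in log2 units (horizontal axis) for the 14 varying member probe sets, in orange, and for the varying genes of 4 lists of partner genes, in blue, with a black bar at each median and the named genes written beside each row from lowest to highest. The members lie between -0.11 and 0.12, the regulators have the lowest median at -0.19, and Sds lies alone at -2.03.

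The samples' label of liver was set against marker genes, since the extraction text speaks of brain. The 7 hepatocyte markers measured stood between 12.16 and 14.34 log2 units, and the 9 brain markers between 5.71 and 7.26, around the array medians of 6.47 to 6.48. None of 10 lists of cell type markers held a called gene in either limma fit. Pairs of arrays correlated at r = 0.990 to 0.998, and 0 pairs were identical. A letter in the sample codes, read here as the row of the array, is A for all seasoned and B for all control livers, and the effects of this row and of the diet cannot be told apart.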

How the data were processed

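Per the labels' protocols, 100 ng of total RNA from each liver gave the biotin-labelled cRNA, and the text on extraction names brain as the source. The authors deposited 1 log2 signal per probe set and array. The base of the log was read from the values, while the summary and normalization method stays unnamed (not given in the sources used here). Arrays have no read depth, and their number limits precision.

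The table has 31099 probe sets, of which 57 are controls and were not used. The platform table gave 20826 probe sets 1 gene, 436 several and 9780 none, and 20764 symbols matched GRCr8's RefSeq gene table by gene ID. Groups were compared with limma 3.58.1 in R 4.3.3 (lmFit and eBayes, two-sided, no covariate), with Benjamini-Hochberg adjustment over all probe sets, and again over the 4050 varying ones, a call being an adjusted p under 0.05. Printed SEs of diet differences come from the first fit, adjusted p of partner genes from the second. The diet fits were tested on simulated data with independent noise for each probe set and array. That simulation held no level shared by an array or by a set of animals. The p-values set a group difference against the spread between separately numbered rats. For the diets that difference includes any effect of the letter read as array row.

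All members are named, and of each partner list the 3 genes with the smallest p. Members and lists were chosen with earlier results of these data known. For a partner gene the probe set with the highest mean was used. Alternatives were other normalizations, variance models, filters, covariates, array weights and leaving out each array.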

Additional observations from a re-analysis of the deposited data

Results flagged for a closer look

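Within each diet group of 5 livers, a single liver was marked where its distance to the nearest other liver, divided by the range of the group, exceeded 0.71, which chance does for about 1 in 20 groups. Among 52 groups (26 probe sets of members and partners in each diet) 4 were marked, where chance would give 2.6 over all 52. The 4 are of member genes, which supply 14 of the 26 probe sets. How often other varying probe sets are marked was not counted.

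For Got1 seasoned liver 13 read 9.66, above the next seasoned liver at 8.94 (ratio 0.844). For Glul 1386870_at seasoned liver 10 read 9.34, below the next at 9.85 (ratio 0.861). For Glul 1367633_at control liver 11 read 9.51, above the next at 9.01 (ratio 0.782). For Cps1 1370151_at control liver 2 read 12.36, above the next at 12.21 (ratio 0.718).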

How the results depend on the processing

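With 5 livers a group, 0 member probe sets were called for diet in either limma fit under every setting run, and 0 of 14 had groups without overlap. The count over all 31042 probe sets was 0, but 2 with array weights, 255 after centring on the varying probe sets and 0 to 10 when single livers were left out (10 without control liver 11). Over the 4050 varying probe sets the 13 called (8 higher, 5 lower) became 4 with 1 probe set per gene, 25 with animal number as a covariate, 22 with a block for the animal-number sets, 306 with array weights, 21 after centring (14 higher), 0 with unequal variances and none shared (420 at an unadjusted p under 0.05), and 0 to 84 without single livers. They were 84 without control liver 11 (28 higher, 56 lower), 18 without control liver 2 (4 higher, 14 lower), 2 without control liver 8, 3 without control liver 5, and 0 without seasoned liver 1, 4 or 7 or control liver 14. Quantile normalization gave 16 (12 higher, 4 lower). The cause was not tested.

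Of 229 values under other settings 1 changed sign, Glul 1386870_at at -0.0038 with the animal-number block. Of 260 values without a single liver 19 did, all near 0. Their ranges were -0.16 to 0.0028 for Cps1 1384334_at, -0.075 to 0.032 for Ass1, -0.11 to 0.020 for Asl 1367754_s_at, -0.15 to 0.050 for Gls2, -0.017 to 0.15 for Glul 1386870_at, -0.012 to 0.032 for Glud1 1387878_at, -0.039 to 0.18 for Got1, -0.12 to 0.064 for Gpt and -0.18 to 0.013 for Oat. Between animal-number sets the count of members called, 1, was 0 after quantile normalization and 0 to 1 without single livers, the 1 being Gpt without seasoned liver 13 and otherwise Cps1 1384334_at. After centring, the calls between these sets over varying probe sets went from 985 (877 lower in animals 8 to 14) to 443 (228 lower). The contrast of differences between the sets called 7 probe sets after centring, 5 without control liver 5 and 1 without control liver 14, and 0 members throughout. The median r of Ass1, Asl, Gls2 and Gpt was 0.788 after quantile normalization, 0.782 after centring and 0.79 to 0.857 without single livers. The labels pair no animals across the diets, and no fit with an assumed pairing of neighbouring numbers was run. No probe set was assigned to a member and another gene, so that alternative left the members as they were.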
